A study of Mus musculus with 33 samples.

Results

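Genes of cholesterol and fatty acid synthesis were followed in tumours of the mouse prostate cancer line Myc-CaP, in mice given the kinase inhibitor ESK981, an antibody against PD-1, or both. The set was chosen by gene symbol and held 32 of the 48795 genes in the deposited table. It comprised 5 SREBP factors and their control genes (Srebf1, Srebf2, Scap, Insig1 and Insig2), 19 genes of sterol synthesis and transport (from Acat2 to Dhcr7 along the pathway, with the carrier Stard4), and 8 genes of fatty acid synthesis (Acly, Acaca, Fasn, Scd1, Scd2, Elovl6, Fads1 and Fads2). All 32 were among the 15846 genes that passed the filter on low values.

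Cells control their sterol level through the SREBP transcription factors, which are made as precursors in the membrane of the endoplasmic reticulum. When sterol is low, the escort protein SCAP carries SREBP to the Golgi, where proteases release the part that enters the nucleus; when sterol is high, INSIG proteins hold SCAP back. SREBP-2 is known mainly for activating sterol synthesis and SREBP-1 mainly for fatty acid synthesis, and both bind promoters together with the factors NF-Y and Sp1. Cholesterol taken up from outside reaches the endoplasmic reticulum through lysosomes, where the lipid kinase PIKfyve acts, and ESK981 is known to inhibit PIKfyve as well as several receptor kinases.

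Myc-CaP cells, which come from a MYC-driven mouse prostate tumour, were grown under the skin of both flanks of male FVB mice, so the tumours did not lie in the prostate. Dosing began at a tumour volume of 50 mm3 and lasted 3 weeks. ESK981 (15 mg/kg) or its vehicle was given by mouth on 5 days a week, and anti-PD-1 or an isotype control antibody (200 µg per mouse) was injected into the abdomen 3 times a week. The 4 groups of 5 mice were vehicle (10 tumours), ESK981 (8 tumours), anti-PD-1 (7 tumours) and both agents together, here the combination (8 tumours). The mice with tumours on both flanks numbered 13 of 20, and tumours are named by a mouse number within the group and by flank (L or R).

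Expression is given in FPKM, fragments per kilobase of exon and per 1e+06 fragments, and a mouse's value is the mean of its tumours. Depth was lowest in vehicle tumour 5R (9.90e+06 fragments) and highest in ESK981 tumour 1R (3.24e+07). Genes lying on ribosomal RNA sequence took 8.87 to 35.3% of the fragments with vehicle, 2.31 to 14.7% with ESK981, 2.88 to 16.7% with the combination and 5.82 to 24% with anti-PD-1, and this share lowers the FPKM of every other gene. A single flow cell held 9 vehicle tumours and nothing else, while vehicle 5R shared another with all 23 treated tumours, so flow cell and treatment cannot be told apart in comparisons with vehicle. Of the markers of the tumour epithelium reported here, Krt8 lay between 3.73 and 117 FPKM and Hoxb13 between 2.09 and 5.48, neither called with ESK981 (log2 fold changes of 0.31 and 0.04, limma, adjusted p = 0.638 and 0.907), whereas Krt18 and Cdh1 were below the filter and Epcam was listed at 0 in 17 of 33 tumours. Summed markers of adipocytes, which also make fatty acids, lay between 1.59 and 27.5 FPKM per tumour, and those of sebaceous gland between 0 and 0.748.

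Promoter sequences are shown first, because SREBP acts there with its partners. RefSeq promoter windows on GRCm38.p6 (250 bases before to 50 after a transcription start) were found for 25 of the 32 genes, and 20 of these 25 held CCAAT, the core bound by NF-Y, on either strand, against 41.1% of 27025 genes. GGGCGG, the core bound by Sp1, was in 21 of 25 (38.2% of all genes), and the E-box CACGTG was in 5 of 25 (8.09%). The sterol regulatory element TCACNCCAC was found in the window of Hmgcs1 alone (1.44% of all genes). By branch, CCAAT was in 14 of 15 sterol genes, in 4 of 5 SREBP genes and in 2 of 5 fatty acid genes, namely Acly and Fasn. These letters are matches and not measured binding; both strands were searched and overlapping matches were allowed.

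The sequences that follow are 200 bases of DNA lying before both the RefSeq and the GENCODE start, written 5′ to 3′ along the gene, with the matches to the 4 motifs in capitals. Insig2 and Elovl6 are shown because they passed the test with ESK981, Lss and Hsd17b7 because they came next to it among sterol genes after Msmo1, for which fewer than 200 bases lay before both starts, Hmgcs1 for its sterol regulatory element, Insig1 as a classical sterol-regulated gene and Fasn for the fatty acid branch.
Insig2 (GRCm38.p6, chr1:121332590-121332789, minus strand): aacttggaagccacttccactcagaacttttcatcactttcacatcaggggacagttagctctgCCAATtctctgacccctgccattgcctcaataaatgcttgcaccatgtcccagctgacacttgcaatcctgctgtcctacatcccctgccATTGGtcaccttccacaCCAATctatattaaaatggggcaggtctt
Elovl6 (GRCm38.p6, chr3:129532155-129532354, plus strand): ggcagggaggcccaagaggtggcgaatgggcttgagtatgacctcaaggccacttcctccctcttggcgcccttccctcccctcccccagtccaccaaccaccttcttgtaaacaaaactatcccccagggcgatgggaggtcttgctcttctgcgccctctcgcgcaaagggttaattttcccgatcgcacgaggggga
Lss (GRCm38.p6, chr10:76531388-76531587, plus strand): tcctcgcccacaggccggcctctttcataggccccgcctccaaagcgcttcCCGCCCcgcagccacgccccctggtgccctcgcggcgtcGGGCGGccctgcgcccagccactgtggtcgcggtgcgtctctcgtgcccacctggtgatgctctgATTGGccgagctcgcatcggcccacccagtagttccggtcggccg
Hsd17b7 (GRCm38.p6, chr1:169969242-169969441, minus strand): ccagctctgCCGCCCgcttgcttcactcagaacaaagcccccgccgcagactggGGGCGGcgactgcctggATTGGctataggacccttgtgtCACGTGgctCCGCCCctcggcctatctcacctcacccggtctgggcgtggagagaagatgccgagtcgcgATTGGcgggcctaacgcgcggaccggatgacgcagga
Hmgcs1 (GRCm38.p6, chr13:119690151-119690350, plus strand): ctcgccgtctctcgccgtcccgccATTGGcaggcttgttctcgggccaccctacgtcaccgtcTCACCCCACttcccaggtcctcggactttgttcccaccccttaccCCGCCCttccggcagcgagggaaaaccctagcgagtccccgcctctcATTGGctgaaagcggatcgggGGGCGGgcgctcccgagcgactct
Insig1 (GRCm38.p6, chr5:28071163-28071362, plus strand): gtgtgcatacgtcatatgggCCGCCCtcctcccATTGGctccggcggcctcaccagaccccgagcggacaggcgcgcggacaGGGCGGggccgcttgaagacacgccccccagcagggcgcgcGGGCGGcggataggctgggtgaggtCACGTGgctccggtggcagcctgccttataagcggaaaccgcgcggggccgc
Fasn (GRCm38.p6, chr11:120824548-120824747, minus strand): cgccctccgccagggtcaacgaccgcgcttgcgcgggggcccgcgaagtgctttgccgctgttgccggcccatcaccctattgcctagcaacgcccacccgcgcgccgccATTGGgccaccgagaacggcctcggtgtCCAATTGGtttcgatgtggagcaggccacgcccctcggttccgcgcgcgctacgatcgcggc
The stretch of Hmgcs1 held the sterol regulatory element between a pair of inverted CCAAT motifs, with 2 GGGCGG motifs. That of Hsd17b7 held 6 matches, that of Insig1 held 5 and that of Lss held 3. Elovl6 held none of the 4 motifs in the 200 bases shown.

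Levels differed widely between the branches. FPKM are per length of all annotated exons of a gene together, so genes can be compared only roughly. Over all 20 mice the mean was highest for the desaturase gene Scd2 (111.5 FPKM). The fatty acid synthase gene Fasn (26.5), the desaturase gene Fads2 (19.6) and Fads1 (15.0) followed. Among sterol genes the highest were Pmvk (8.95), Hmgcs1 (8.49) and Sc5d (8.38), and the lowest was Fdps (0.631). Srebf2 averaged 12.4 FPKM and Srebf1 averaged 6.04. The level of some genes is uncertain because part of their exons, read as 50-base words, also occurs in other genes: 39.1% for Acat2, 30.4% for Acaca, 26.5% for Fdft1, 26.2% for Fdps and 25.3% for Idi1.

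**Figure D1:**
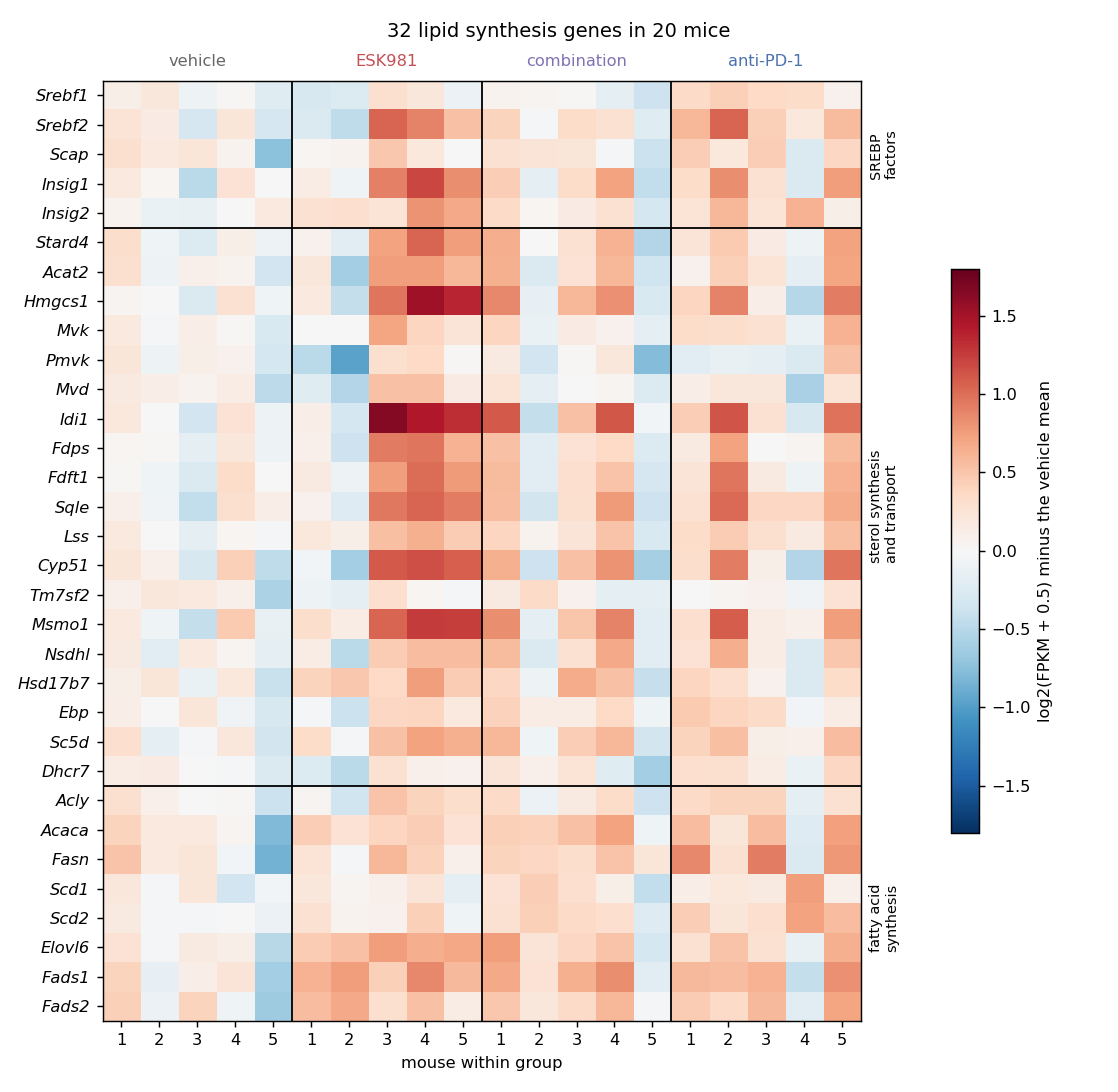
Expression of the 32 genes (rows, in 3 blocks) in each of 20 mice (columns, by group), as log2(FPKM + 0.5) minus the mean of the vehicle mice (colour scale). The sterol block is high in ESK981 mice 3, 4 and 5, whose list medians are 0.71, 0.75 and 0.60, and near or below the vehicle mean in ESK981 mice 1 and 2.

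ESK981 was first set against vehicle. Insig2, which codes for a protein that retains SCAP, and Elovl6, the elongase that extends palmitate to stearate, were higher with ESK981, and no gene of the set was lower. A gene was called when its adjusted p was under 0.05. These 2 of 32 compare with 8.95% of all genes tested called higher and 5.43% called lower, or 14.4% in either direction. Most of the other genes leaned the same way without passing: 29 of 32 estimates were above 0, against 62.4% of all genes, and 13 had an unadjusted p under 0.05. The share of all genes with an unadjusted p under 0.05 was not taken, here or in later comparisons. Here it is at least the 14.4% called, so the 13 cannot be set against a background. Log2 fold changes, taken on log2(FPKM + 0.5), are given with their SE from a limma model over 20 mice with Benjamini-Hochberg adjustment over all genes.

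Insig2 measured 7.38, 6.47, 6.34, 7.18 and 8.02 FPKM in vehicle mice 1 to 5 and 8.61, 8.78, 8.44, 12.7 and 11.6 in ESK981 mice 1 to 5. The groups did not overlap, and mice 4 and 5 of the ESK981 group stood highest. The means were 7.08 ± 0.688 and 10.02 ± 1.97 FPKM (SD, n = 5 mice), and the log2 fold change was 0.47 ± 0.15 (limma, adjusted p = 0.0418). In the other groups Insig2 averaged 9.30 ± 1.63 with anti-PD-1 and 7.64 ± 1.39 with the combination.

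Elovl6 measured 9.30, 7.33, 8.50, 8.12 and 5.90 FPKM in the vehicle mice and 10.5, 11.1, 12.96, 12.1 and 12.5 with ESK981. Every ESK981 mouse lay above every vehicle mouse, with mouse 1 lowest. The log2 fold change was 0.62 ± 0.18 (limma, adjusted p = 0.0313), from a mean of 7.83 ± 1.29 to 11.8 ± 0.998 FPKM (SD, n = 5 mice). With the combination Elovl6 ran from 5.91 to 13.03 FPKM and with anti-PD-1 from 7.03 to 12.02, both overlapping vehicle.

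Hsd17b7, which acts in demethylation of the sterol ring, and the desaturase gene Fads1 also had no ESK981 mouse within the vehicle range, so that 4 of 32 genes did not overlap and were higher, against 11.5% of all genes. Fads1 measured 14.6, 9.93, 12.1, 13.2 and 7.90 FPKM with vehicle and 16.9, 18.6, 14.9, 19.9 and 16.5 with ESK981. Its lowest ESK981 mouse was only just above its highest vehicle mouse. Its log2 fold change was 0.65 ± 0.23 (limma, adjusted p = 0.059), and that of Hsd17b7 was 0.49 ± 0.19 (0.0829), so neither passed.

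Both calls stood close to the threshold. Leaving out 1 mouse at a time, Insig2 stayed called in 10 of 20 fits and Elovl6 in 14 of 20. Insig2 was lost without vehicle 1, 2, 3 or 4, ESK981 1, 2, 4 or 5, or anti-PD-1 1 or 3 (limma, adjusted p from 0.0513 to 0.113). Elovl6 was lost without vehicle 2 or 5 or ESK981 2, 3, 4 or 5 (0.05 to 0.0801). Without vehicle tumour 5R alone, which had the highest share of ribosomal RNA, Elovl6 was at 0.47 (0.0577) and Insig2 at 0.50 (0.0267).

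The calls also depended on the scale. When FPKM were rescaled after leaving the ribosomal-RNA-like and mitochondrial genes out of the total, the median log2 fold change of all genes moved from 0.11 to −0.12, Insig2 fell to 0.18 (adjusted p = 0.438) and Elovl6 to 0.33 (0.114), and no gene of the set was called, beside 2.93% of all genes called higher. The list medians were then 0.06 for SREBP, 0.17 for sterol and 0.03 for fatty acid genes. On that scale 20 of the 32 estimates were above 0, and 24 of 32 were above the median of all genes, where 25 had been on the deposited scale. With median-of-ratios scaling, 14% of all genes were called higher, and 5 genes of the set were (Elovl6 at 0.49, Fads1 at 0.52, Msmo1 at 0.69, Hsd17b7 at 0.42 and Lss at 0.28), and Insig2 was not (0.33, adjusted p = 0.135).

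**Figure D2:**
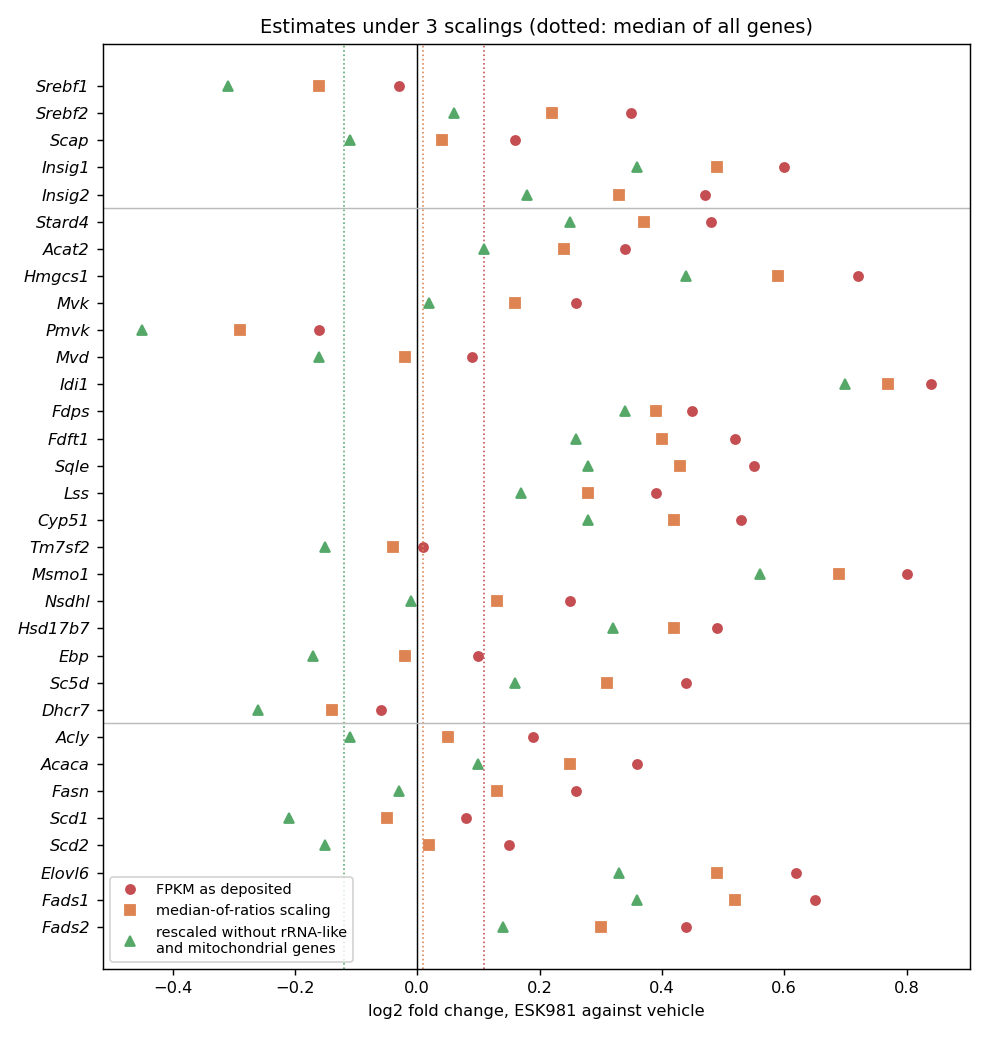
Log2 fold changes of the 32 genes between ESK981 and vehicle (x axis) on the deposited FPKM scale, after median-of-ratios scaling, and after rescaling without ribosomal-RNA-like and mitochondrial genes, with dotted lines at the median of all genes on each scale. The 3 estimates of a gene lie apart by about as much as the medians of all genes, which are 0.11, 0.01 and −0.12, and Idi1, Msmo1 and Hmgcs1 lie above those medians on every scale.

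The sterol branch had the largest estimates. The median log2 fold change was 0.44 over the 19 sterol genes, 0.35 over the 5 SREBP genes and 0.31 over the 8 fatty acid genes, beside 0.11 over all genes. Idi1, the isomerase that makes the second isoprene building block, was at 0.84 ± 0.36 (limma, adjusted p = 0.116). Its level was low (vehicle mean 0.904 FPKM, 3 to 328 fragments per tumour), so the added 0.5 weighs on its log2 values. Msmo1, a methylsterol oxidase, was at 0.80 ± 0.27 (0.0509). Hmgcs1, which makes HMG-CoA, was at 0.72 ± 0.33 (0.14), and the squalene epoxidase gene Sqle at 0.55 ± 0.26 (0.143). Pmvk, Dhcr7, Mvd and Tm7sf2 of the same branch lay between −0.16 and 0.09, so estimates differed within the branch. Of the remaining SREBP genes, Insig1 was at 0.60 (0.116) and Scap at 0.16, and of the remaining fatty acid genes Fads2 was at 0.43 (0.139), with Acaca, Fasn, Acly, Scd2 and Scd1 between 0.08 and 0.36.

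Msmo1 measured 3.07, 2.43, 1.78, 3.77 and 3.13 FPKM in the vehicle mice. In ESK981 mice 1 to 5 it was at 3.37, 2.88, 5.83, 6.87 and 6.78 FPKM. Mice 1 and 2 fell inside the vehicle range, and mice 3, 4 and 5 lay above it. Hmgcs1 also divided the ESK981 mice, with 6.37, 5.80, 4.79, 7.14 and 6.81 FPKM in vehicle mice and 7.15, 4.17, 11.7, 17.5 and 15.7 in ESK981 mice. Mouse 1 was level with the highest vehicle mouse, mouse 2 was below the lowest, and the other 3 were above the vehicle range. Idi1 ran from 0.538 to 1.07 FPKM with vehicle and measured 1.13, 0.543, 3.59, 3.02 and 2.78 with ESK981.

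Tumours of 1 mouse could differ as much as mice did. In ESK981 mouse 1, Hmgcs1 was at 9.95 FPKM in the left tumour and 4.34 in the right, and the only tumour of mouse 2 was at 4.17. Those tumours, 1R and 2R, were also low in the cell division marker Mki67 (2.8 and 2.7 FPKM, against 25.9 to 36.1 in the other 6 ESK981 tumours). In combination mouse 1, Hmgcs1 was at 18.2 FPKM on the left and 6.44 on the right, with Mki67 at 35.5 and 16.8. Over the 13 mice with both flanks, the median SD between the tumours of a mouse was 0.42 on the log2 scale for sterol genes, beside 0.38 between mice of a group, and 0.28 against 0.28 for all genes.

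Leaving out ESK981 1R and 2R, an alternative taken because an earlier analysis had found them low in division genes, raised the count from 2 to 14 of 32 called higher, 11 of them in the sterol branch, while 5.51% of all genes were called higher in that fit. Hmgcs1 was then at 1.15 (limma, adjusted p = 0.0253), Idi1 at 1.33 (0.0215), Sqle at 0.89 (0.0271) and Msmo1 at 1.03 (0.0284), while Insig2 was at 0.50 (0.0528). With the rescaling as well, 5 sterol genes were called higher, beside 1.99% of all genes: Stard4, Hmgcs1 (0.88), Idi1 (1.20), Fdps and Msmo1 (0.79). These tumours were chosen by their values, so the larger counts describe the remaining tumours and are not a test of the treatment.

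**Figure D3:**
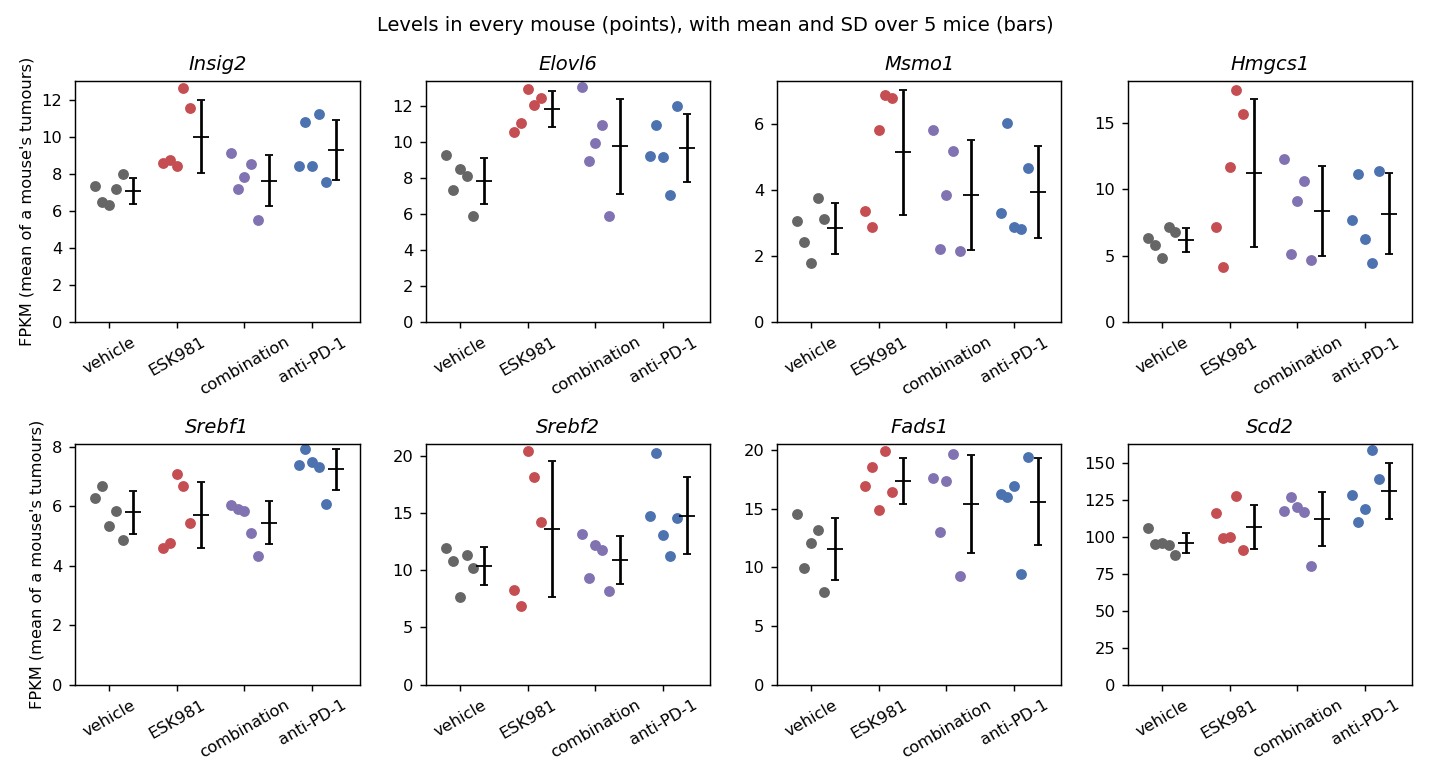
FPKM of 8 genes in each mouse (points) of the 4 groups, with the mean and SD over 5 mice (bars). Insig2, Elovl6 and Fads1 have no ESK981 mouse within the vehicle range, Hmgcs1 and Msmo1 divide the ESK981 mice, and Srebf1 is highest with anti-PD-1 (7.23 ± 0.685 FPKM).

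The spread between mice of a group differed by branch and by group, with no test made. The median SD over the 5 ESK981 mice was 0.18 on the log2 scale for fatty acid genes and 0.47 for sterol genes, beside 0.21 for all genes. With vehicle the order was the reverse, 0.35 for fatty acid and 0.22 for sterol genes, and the SDs were 0.30 and 0.42 with the combination and 0.33 and 0.32 with anti-PD-1. Vehicle mouse 5, with tumour 5R at 35.3% ribosomal-RNA-like fragments, had a fatty acid median of −0.56 relative to the vehicle mean. The other vehicle mice lay between −0.03 and 0.34, and mouse 5 was at −0.28 after the rescaling. Its part in the vehicle spread was not tested. Relative to the vehicle mean, the median of the 8 fatty acid genes was 0.36, 0.16, 0.41, 0.43 and 0.20 in ESK981 mice 1 to 5, and that of the 19 sterol genes was 0.09, −0.32, 0.71, 0.75 and 0.60. In mouse 3 all 19 sterol genes were above the highest vehicle mouse, in mouse 4 it was 17, in mouse 5 it was 14, and in mice 1 and 2 it was 3 and 1. On the rescaled values these counts were 16, 15 and 13 in mice 3, 4 and 5, and 1 and 1 in mice 1 and 2. The share of all genes above the highest vehicle mouse was not taken for single mice, so the counts have no background. After the rescaling the sterol medians of the 5 mice were −0.14, −0.52, 0.55, 0.52 and 0.33, and the fatty acid medians were 0.05, −0.16, 0.22, 0.15 and −0.10.

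Anti-PD-1 was next set against vehicle. No gene of the set was called (0.783% of all genes were), although 7 had an unadjusted p under 0.05 and 31 of 32 estimates were above 0, against 72.1% of all genes. The 7 have no share of all genes beside them. The medians were 0.37 for fatty acid genes, 0.36 for SREBP genes and 0.30 for sterol genes, beside 0.13 for all genes. Srebf2 was at 0.57 ± 0.25 (limma, adjusted p = 0.321) and Fasn at 0.52 ± 0.23 (0.33).

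Scd2, a stearoyl-CoA desaturase, had the smallest p. It measured 106.1, 94.97, 96.1, 94.8 and 87.8 FPKM with vehicle and 128.6, 110.3, 118.7, 159.1 and 139.1 with anti-PD-1. The groups did not overlap, and 2.81% of all genes had every anti-PD-1 mouse above every vehicle mouse. Its log2 fold change was 0.45 ± 0.15 (limma, adjusted p = 0.151), which did not pass, and it was 0.22 after the rescaling.

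Srebf1 and Srebf2 both had their highest group mean with anti-PD-1 (7.23 and 14.8 FPKM). In both, ESK981 mice 1 and 2 were the lowest of their group. Srebf1 measured 6.29, 6.66, 5.33, 5.83 and 4.87 FPKM with vehicle, 4.59, 4.76, 7.08, 6.67 and 5.42 with ESK981, 6.04, 5.92, 5.85, 5.08 and 4.32 with the combination, and 7.38, 7.91, 7.49, 7.31 and 6.08 with anti-PD-1. Every combination mouse was below every anti-PD-1 mouse, which held for 0.713% of all genes. The log2 fold change between these groups was −0.39 ± 0.13, which did not pass adjustment (limma, adjusted p = 0.584).

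Srebf2 measured 11.96, 10.8, 7.68, 11.3 and 10.2 FPKM with vehicle and 8.25, 6.84, 20.4, 18.1 and 14.2 with ESK981. It divided the ESK981 mice as Hmgcs1 did, with mice 1 and 2 low and mice 3, 4 and 5 high. With the combination it was at 13.2, 9.29, 12.2, 11.7 and 8.19 FPKM, and with anti-PD-1 at 14.8, 20.3, 13.1, 11.2 and 14.5. The ESK981 difference from vehicle was 0.35 ± 0.25 (limma, adjusted p = 0.342).

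With the combination, no gene of the set was called against vehicle (0.606% of all genes were), and none had an unadjusted p under 0.05. The medians were 0.31 for fatty acid genes, 0.19 for sterol genes and 0.10 for SREBP genes, beside 0.03 for all genes, and 28 of 32 estimates were above 0 (54.2% of all genes). The largest were Idi1 at 0.46 ± 0.36, Fads1 at 0.45 ± 0.23 and Acaca, the first committed enzyme of fatty acid synthesis, at 0.40 ± 0.20 (limma, adjusted p = 0.63, 0.436 and 0.425). Combination mice 1 and 4 had sterol medians of 0.55 and 0.53, and mice 2 and 5 had −0.16 and −0.27, so this group was also divided.

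**Figure D4:**
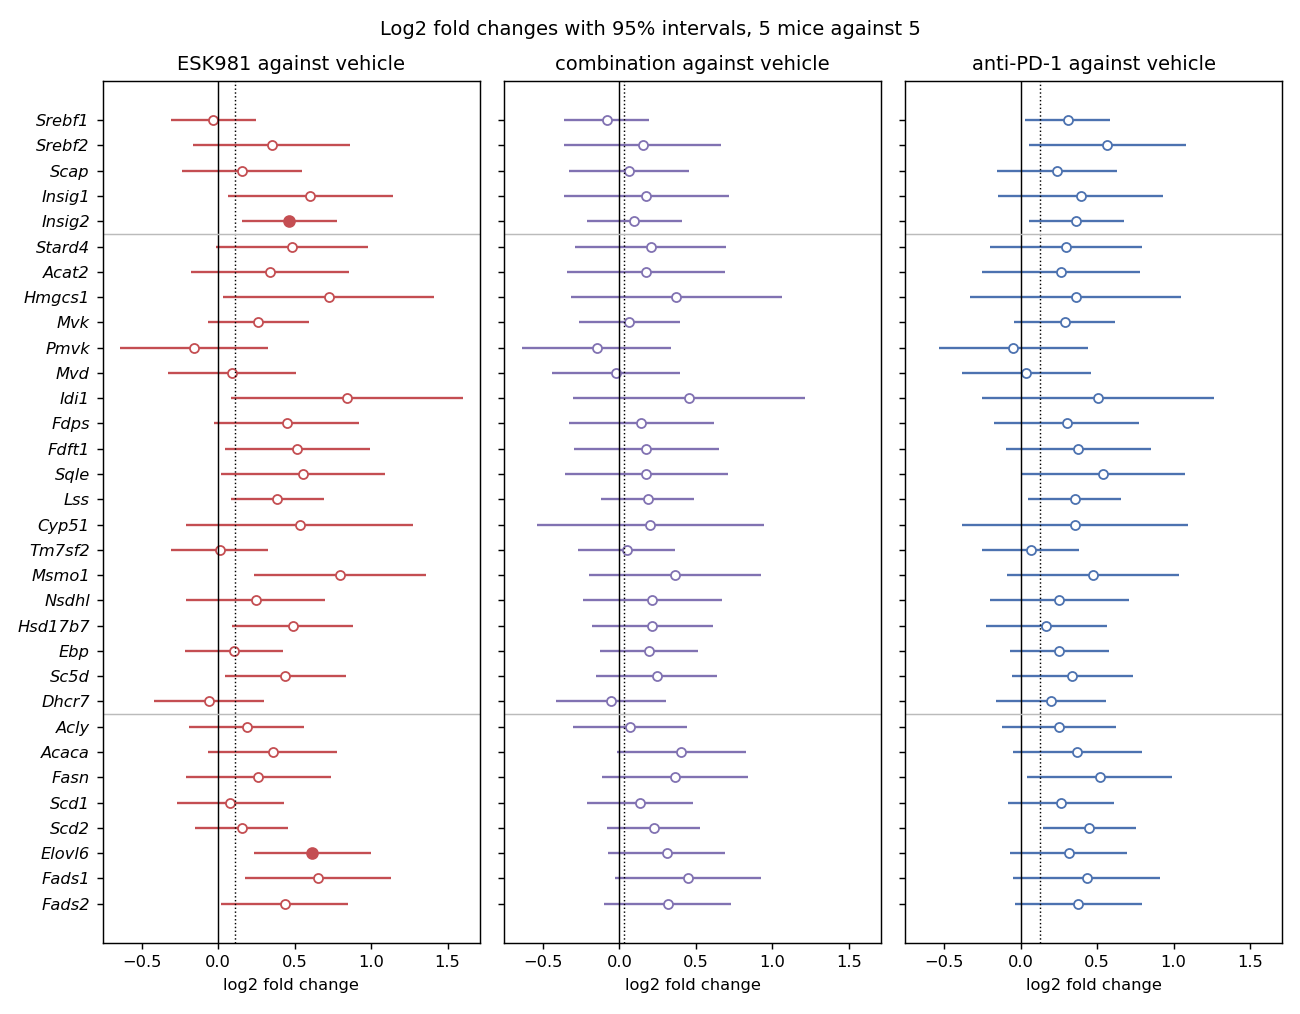
Log2 fold changes (x axis) of the 32 genes against vehicle with 95% intervals, for ESK981, the combination and anti-PD-1, with 5 mice in each group. Filled points mark the 2 genes called (Insig2 and Elovl6 with ESK981), the dotted line is the median of all genes, and all 3 comparisons share the same vehicle mice.

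Comparisons among the treated groups, whose tumours all ran on 1 flow cell, gave no called gene of the set. For the combination against anti-PD-1 and against ESK981, no gene at all was called in the limma fit (0% of 15846), and 1 member in each had an unadjusted p under 0.05: Srebf1 (p = 0.0086) and Insig2 (p = 0.0224). For ESK981 against anti-PD-1, 0.00631% of genes were called and 1 member, Srebf1, had an unadjusted p under 0.05. The intervals were wide: for Hmgcs1 the log2 difference between ESK981 and anti-PD-1 was 0.36, with a 95% interval from −0.33 to 1.05, and for Fasn it was −0.25, from −0.73 to 0.22.

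The interaction asks whether ESK981 differed in effect with and without anti-PD-1. No gene of the set was called (0.0252% of all genes were), while 31 of 32 estimates were below 0 and 9 had an unadjusted p under 0.05. The 9 have no share of all genes beside them. The share of all genes above 0 was 26.4%, so most genes leaned the same way. Medians were −0.73 for SREBP genes, −0.53 for sterol genes and −0.40 for fatty acid genes, beside −0.22 for all genes. Insig2 had the smallest p, at −0.73 ± 0.21 (limma, adjusted p = 0.14), followed by Lss, the lanosterol synthase gene, at −0.56 ± 0.21 (0.187). The vehicle mice enter this estimate too, so flow cell and treatment cannot be told apart here either.

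Across mice, the sterol genes Hmgcs1 and Sqle rose and fell together. Pearson's r between Hmgcs1 and Sqle was 0.87 over 20 mice (Spearman's rho 0.82, two-sided permutation test, p = 1e-05 for r, the smallest that 100000 permutations can give, and 6e-05 after adjustment over 6 relations). It was 0.83 without the 2 mice farthest from the median of Hmgcs1, 0.89 with group means removed, 0.86 in the 15 treated mice alone and 0.83 on the rescaled values. Only 0.303% of the genes tested had an r with Hmgcs1 at least as high, and the median over all genes was 0.32.

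The link with Srebf2 was nearly as close. Hmgcs1 with Srebf2 gave r = 0.79 and rho = 0.84 (permutation test, adjusted p = 0.00018 for r and 4e-05 for rho), 0.78 without the 2 farthest mice, 0.76 in the treated mice and 0.73 on the rescaled values, and 2.4% of genes reached that r. Hmgcs1 also followed Mki67, with r = 0.69 and rho = 0.85 (adjusted p = 0.00056 and 4e-05), 0.67 without the 2 farthest mice, 0.85 with group means removed and 0.75 in the treated mice. Since 8.87% of genes tested had an r with Hmgcs1 at least that high, the relation with Mki67 was shared by many genes.

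Fasn was the only fatty acid gene set against Hmgcs1. Hmgcs1 with Fasn gave r = 0.37 and rho = 0.49 (permutation test, adjusted p = 0.12 and 0.04), and r was 0.50 without the 2 farthest mice and 0.17 on the rescaled values; 44.8% of genes had an r with Hmgcs1 at least that high. Fasn with Srebf1 gave r = 0.42 and rho = 0.48 (0.096 and 0.04), and r fell to 0.23 without the 2 mice farthest from the median of Fasn, so it rested on them, and to 0.19 on the rescaled values. Of the genes tested, 45.4% had an r with Fasn at least as high as 0.42, and the median over all genes was 0.39. Fasn with Scd1, which are neighbouring steps from palmitate to its desaturated products, gave r = 0.11 and rho = 0.26 (0.65 and 0.26).

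**Figure D5:**
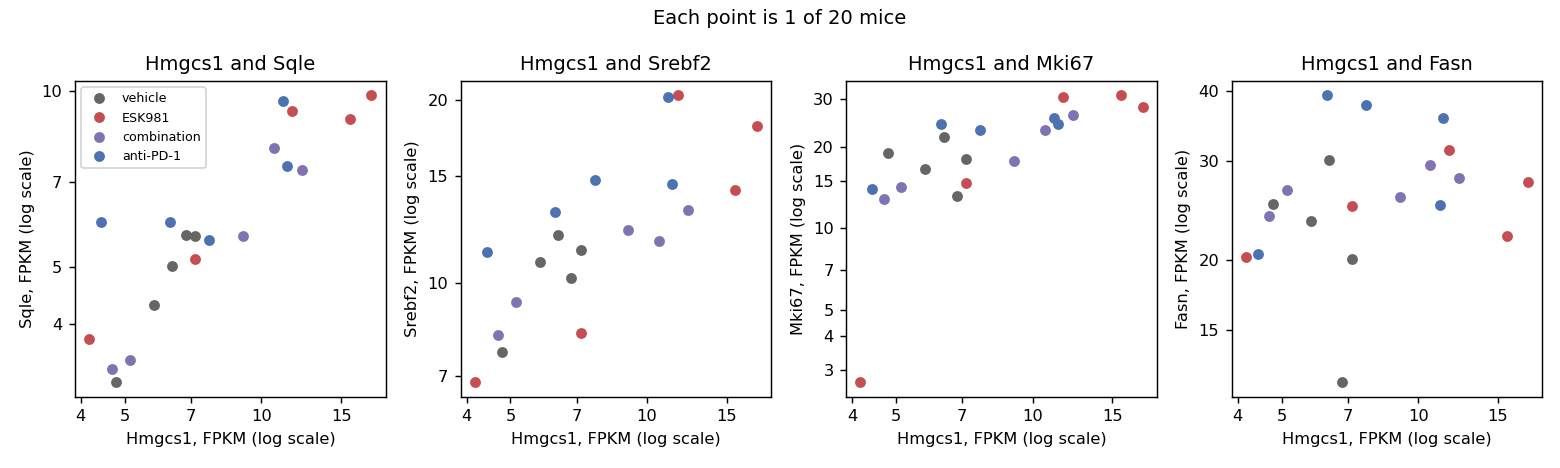
Hmgcs1 (x axis, FPKM, log scale) against Sqle, Srebf2, Mki67 and Fasn (y axes, FPKM, log scale) in 20 mice coloured by group. The points climb together in the first 3 panels (r = 0.87, 0.79 and 0.69) and scatter for Fasn (r = 0.37).

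Genes around the pathway were read from 8 lists. With ESK981, 9 of their tested genes were called higher, 3 lower and 52 not, beside 8.95% of all genes called higher and 5.43% lower. Of the 8 tested genes of SREBP processing and turnover, 3 rose with ESK981: Rnf139 (0.56), a ubiquitin ligase of the endoplasmic reticulum, Erlin1 (0.61), which binds there in sterol-rich membrane, and Sec23a (0.52), a coat protein of vesicles leaving it. The list median was 0.42, and Mbtps1 and Mbtps2, the proteases that cleave SREBP, were not called. Of 8 isoprenoid branch genes, Ggps1, which makes geranylgeranyl diphosphate, rose from 3.91 ± 0.565 to 6.26 ± 0.458 FPKM (SD, n = 5; 0.63 ± 0.17, limma, adjusted p = 0.0199). Rnf139, Erlin1, Sec23a and Ggps1 were not called on the rescaled values, where Fntb, a farnesyltransferase subunit of the isoprenoid list, was called lower (−0.41, adjusted p = 0.0225), and of these genes Ggps1 alone was called without ESK981 1R and 2R (0.62, 0.0401). With median-of-ratios scaling, Rnf139, Erlin1, Sec23a and Ggps1 were all called higher (limma, adjusted p from 0.00206 to 0.0233), beside 14% of all genes. Mbtps1 was called higher on that scale too (0.31, limma, adjusted p = 0.0138).

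In the lists of sterol export, sterol storage and lysosomal lipid release, 1 gene each was called with ESK981. Each of these was lower, beside 5.43% of all genes called lower. Nr1h3, the sterol-sensing receptor LXR-alpha, fell from 1.24 ± 0.539 to 0.428 ± 0.0882 FPKM (−0.83 ± 0.22, limma, adjusted p = 0.0194), 1 of 6 in its list. Plin2, a coat protein of lipid droplets, fell from 12.2 ± 3.89 to 6.004 ± 1.32 (−0.88 ± 0.20, adjusted p = 0.00925), 1 of 5. Psap, the precursor of proteins that help lysosomal lipid breakdown, fell from 271.3 ± 75.0 to 126.9 ± 20.9 (−1.01 ± 0.29, adjusted p = 0.0254), 1 of 13. All 3 were also called lower on both other scales, where 13.9% (median-of-ratios) and 17.3% (rescaled) of all genes were called lower. On the rescaled values, Nr1h2 (−0.60), Abcg1 (−1.06), Lipa (−0.90), Npc2 (−0.62), Stard3 (−0.41), Mcoln1 (−0.45) and Soat1 (−0.99) of these lists were called lower as well. Except for Stard3, they were also called lower with median-of-ratios scaling.

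Macrophage markers, which come from cells that also express Nr1h3, Plin2 and Psap, were lower too, as were most fibroblast and T cell markers. The summed level of 7 macrophage markers was 85.4 to 247 FPKM per tumour with vehicle and 58.3 to 111 with ESK981, and Cd68, C1qa, Csf1r and Msr1 were called lower. The sum of 5 fibroblast markers was 51.9 to 682 and 27.2 to 57, and that of 5 T cell markers was 0.533 to 10.9 and 0.903 to 3.1. In each of these lists 4 of 5 markers were called lower, beside 5.43% of all genes. Median log2 fold changes were −0.88 for macrophage, −1.39 for fibroblast and −1.05 for T cell markers. Whether Nr1h3, Plin2 or Psap followed any of these markers across mice was not tested. Single markers of other cell types were called in the opposite direction. Cdh5 of endothelium was at 1.17 (limma, adjusted p = 0.00822). Of the 4 tested adipocyte markers only Fabp4 was called, at 0.84 (limma, adjusted p = 0.0418), and the other 3 were below 0. The summed level of 10 adipocyte markers was 2.9 to 14.6 FPKM per tumour with vehicle and 2.92 to 10.5 with ESK981. In bulk tumours, fewer cells of a type and less RNA per cell cannot be told apart, and the part of cell mixture in these results was not tested.

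Genes of fatty acid oxidation were also read. Of 8 tested genes of fatty acid oxidation, 3 were called higher with ESK981 and none lower, beside 8.95% of all genes called higher. Acadm, the medium-chain acyl-CoA dehydrogenase, rose from 15.4 ± 4.47 to 30.5 ± 5.62 FPKM (SD, n = 5; 1.01 ± 0.18, limma, adjusted p = 0.00343), with no overlap between mice, and it was called on both other scales (0.87 and 0.71). Hadha (0.46) and Hadhb (0.60), the subunits of the mitochondrial trifunctional protein, rose as well. Acsl1 (0.95), which activates fatty acids, was the 1 called gene of 11 in its list, and Lpin1 (0.80), a phosphatidate phosphatase, the 1 called of 5 in glycerolipid synthesis. Hadha, Hadhb, Acsl1 and Lpin1 were not called after the rescaling, nor without ESK981 1R and 2R, where Acadm was (0.84, adjusted p = 0.0197). With median-of-ratios scaling, Hadha, Hadhb, Acsl1 and Lpin1 were all called higher, beside 14% of all genes. No gene of these 8 lists was called with anti-PD-1 or the combination against vehicle (0.783 and 0.606% of all genes were).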

How the data were processed

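RNA from 33 tumours of 20 mice was sequenced after removal of ribosomal RNA. The authors deposited FPKM per gene, with STAR, featureCounts and the mm10 build named per the submitters' processing notes. Versions, annotation and strand setting were not given in the sources used here. Low FPKM values were whole multiples of 1 fragment within 0.01, which gave depth (9.90e+06 to 3.24e+07 fragments) but was used for no count test. From the deposited FPKM, log2(FPKM + 0.5) was averaged over the tumours of a mouse. The 15846 genes that reached 0.5 FPKM in 5 or more tumours were fitted with limma 3.58.1 (R 4.3.3, trend) in 1 model of 4 groups, with Benjamini-Hochberg adjustment over all genes for each of 7 comparisons. On simulated data with 15846 genes, the ESK981 comparison recovered 18% of 50 genes changed by 0.5 (log2) and 84% of 50 changed by 1. Fewer genes were changed there than the 2278 called in the data, so these shares need not hold for the data. Relations used 100000 permutations (scipy 1.17.1).

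The members, lists and tests were chosen with earlier results of these data known, so no list was tested. Values in every mouse are given for called members, Srebf1, Srebf2 and the 6 members with the smallest p in any comparison; Hmgcs1 and Idi1 were added after their values were seen. Of the other lists, up to 4 genes called on the deposited scale are named, and those called lower after rescaling were added later. Alternatives changed the pseudocount, filter, scaling, tumours and model. Mice are numbered 1 to 5 within each group, in the order of the labels' own numbers. A further marker of the tumour epithelium is not reported here.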

Additional observations from a re-analysis of the deposited data

Results flagged for a closer look

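In 9 of the 128 groups of 5 mice examined (32 genes in 4 groups), 1 mouse stood far from the others; chance alone gives about 1 in 20. Vehicle mouse 5 was low for Scap (2.678 FPKM, the others 4.684 to 5.613), Mvd (2.89, the others 3.491 to 3.722) and Tm7sf2 (0.3514, the others 0.7984 to 0.9248). Anti-PD-1 mouse 4 was low for Mvd (2.165, the others 3.515 to 3.891), Acly (11.36, the others 15.18 to 16.72) and Fads1 (9.417, the others 15.98 to 19.4), and high for Scd1 (19.18, the others 11.13 to 11.93). Pmvk was high in anti-PD-1 mouse 5 (13.32, the others 7.542 to 8.257), and Scd2 was low in combination mouse 5 (80.59, the others 116.6 to 127.2). Tumours vehicle 5R and anti-PD-1 4R had the highest ribosomal-RNA-like shares of their groups (35.3 and 24% of fragments); the part of this in the low values was not tested.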

How the results depend on the processing

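With ESK981 against vehicle, 2 genes were called higher, and percentages here are the share of all genes called higher in the same fit (8.95%). The count was 0 with no filter (2.52%), 5 with median-of-ratios scaling (14%) and 0 after rescaling (2.93%). Tumours in a mouse block gave 4 (13.7%), and leaving out vehicle 5R gave 1 (8%). Without 3 tumours (combination 5R, vehicle 5R and anti-PD-1 4R) it was 5, beside 19.4%. Without ESK981 1R and 2R it was 14 (5.51%), and with the ESK981 and vehicle groups alone 5 (13.1%). Left flanks gave 0 (0.612%) and right flanks 1 (3.29%). Leaving out 1 mouse gave 0 to 6, beside 3.65 to 16.3%. Rescaling without ESK981 1R and 2R, chosen after seeing the data, gave 5 (1.99%). SREBP, sterol and fatty acid medians were 0.06, 0.17 and 0.03 after rescaling, and the SREBP median was 0.13 without vehicle 5R or the 3 tumours. A term for flow cell (estimated from vehicle 5R alone) gave 24, 20, 18 and 21 calls for ESK981, anti-PD-1, combination and interaction (35, 27.1 and 27% of all genes called higher, and 24.9% lower in the interaction), with SREBP, sterol and fatty acid medians of 1.37, 1.25 and 1.61, of 1.41, 1.06 and 1.53, of 1.29, 1.08 and 1.60, and of −1.48, −1.20 and −1.62; Mvd with the combination turned from −0.02 to 1.58. Leaving out 1 mouse gave SREBP, sterol and fatty acid medians of 0.18 to 0.51, 0.32 to 0.55 and 0.14 to 0.42 for ESK981, 0.28 to 0.39, 0.20 to 0.39 and 0.23 to 0.48 for anti-PD-1, 0.04 to 0.20, 0.09 to 0.31 and 0.17 to 0.40 for the combination, and −0.79 to −0.59, −0.65 to −0.39 and −0.54 to −0.30 for the interaction.

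Without the 3 tumours, anti-PD-1 gave 4 calls (Acaca, Fasn, Scd2 and Fads1, beside 9.35% of all genes called higher). The combination then gave 2 (Acaca and Fads1, 7.68%) and the interaction 1 (Insig2, 2.64% lower). Without combination mouse 5, anti-PD-1 gave 1 (Scd2, beside 1.33% of all genes called higher). The SREBP median was 0.15 for anti-PD-1 and −0.13 for the combination after rescaling, with or without ESK981 1R and 2R, and 0.16 for anti-PD-1 on left flanks; the fatty acid median of the combination was 0.61 on right flanks. Interaction medians of SREBP and fatty acid genes were −0.49 and −0.14 with median-of-ratios scaling and −0.46 and −0.11 after rescaling; the SREBP median was −0.54 without vehicle 5R, −0.51 without the 3 tumours, −0.50 rescaled without ESK981 1R and 2R, and −0.28 on left flanks, where the sterol median was −0.15. For the combination against anti-PD-1, left flanks gave −0.06 (SREBP) and 0.23 (sterol) and right flanks 0.19 (fatty acid); against ESK981, the SREBP median was −0.40 without ESK981 1R and 2R; for ESK981 against anti-PD-1 it was 0.16 on left flanks. Leaving out 1 mouse gave 0 calls in these 3 comparisons. The causes were not tested. Over all alternatives, genes called with ESK981 against vehicle numbered 190 to 5786, beside 2278. No paired analysis was possible because mouse numbers only name the mice within a group and tie no mouse to one of another group.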

Other observations

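Anti-PD-1 mouse 4 carried tumours that differed by gene and not only in level. Fasn was at 31.96 FPKM in its left tumour and 9 in its right, and Hmgcs1 at 6.67 and 2.19, while Insig2 was at 8.92 and 13.6 and Sqle at 5.60 and 6.36. In vehicle mouse 5, Hmgcs1 was at 11.1 FPKM on the left and 2.56 on the right, and Fasn at 16.8 and 7.33. The largest flank difference of any member was 2.67 on the log2 scale, for Cyp51.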
